A study of Mus musculus with 4 samples.

Results

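A set of 10 pericyte genes, including both genes of the vascular KATP channel, were followed in infarcted mouse hearts with and without endothelial S1pr1. They are a list of named genes, found on the arrays through the RefSeq accession of each probe. All 10 had a probe, out of 22931 features that could be tested, and on every array each gave a signal well above background, which means that the filter on dim probes removed none. The hearts were taken from males on day 5 of a myocardial infarction made by tying off the left anterior descending coronary artery. The wild-type group (WT) comprised replicates 1 and 3, and the knock-out group (VE-Cad-Cre-S1pr1 fl/fl, KO) comprised replicates 3 and 4. In KO mice the VE-cadherin promoter, active in endothelial cells, drives the Cre that deletes the floxed gene. Every heart was infarcted, so no value here describes an uninjured heart. No age or strain was used here, and nothing in the labels says that each array is a separate heart. The p-values therefore reflect the spread of these samples alone, and that spread may be technical.

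Pericytes are mural cells that lie in the basement membrane of capillaries, touch the endothelium, and share many genes with the smooth muscle of larger vessels. Endothelial cells attract them with the growth factor PDGF-B, which binds the receptor encoded by Pdgfrb, and Notch ligands on endothelium act on the mural receptor encoded by Notch3. The KATP channel of mural cells opens when ATP is low or under vasodilator signals, hyperpolarises the cell and relaxes the vessel. Its pore is Kir6.1, encoded by Kcnj8, and its regulatory subunit is SUR2, encoded by Abcc9. Cardiomyocytes also use SUR2, with another pore, Kir6.2, encoded by Kcnj11.

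Levels are given as log2 signal after the 75th percentile of the array was taken off, and each difference is the KO mean minus the WT mean of these levels. S1pr1, the targeted gene, was 0.43 and 0.95 in WT and -2.69 and -2.30 in KO. The arrays lay on 1 slide, WT replicate 1 at position 4, WT replicate 3 at 3, KO replicate 3 at 2 and KO replicate 4 at 1, so slide position and genotype cannot be told apart. WT replicate 1 stood apart from the others: 54.3% of its probes were well above background, against 69.4% to 73.4% on the other arrays, and ventricular cardiomyocyte markers had a mean of 2.25 there against 6.12 to 6.90 on the others.

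Some members are neighbours in the genome, and the bases upstream of their starts are shown because the results below set these neighbours side by side. Kcnj8 and Abcc9 lie next to each other on chromosome 6, and Rgs5 and Rgs4 on chromosome 1, with no other gene between them in the RefSeq order of GRCm38.p6. Steap4, on chromosome 5, is added because it had the smallest p of the members. Each run is the 250 bases before the start, 5′ to 3′ on the strand of the gene, from the RefSeq promoter table of GRCm38.p6. Capitals mark TGGGAA, the core recognised by the Notch effector RBPJ, and TATAAA, the TATA box, on either strand. The table holds 8 of the 10 members, and Pdgfrb and Higd1b were not matched.
Kcnj8, chr6:142571615-142571864, strand minus: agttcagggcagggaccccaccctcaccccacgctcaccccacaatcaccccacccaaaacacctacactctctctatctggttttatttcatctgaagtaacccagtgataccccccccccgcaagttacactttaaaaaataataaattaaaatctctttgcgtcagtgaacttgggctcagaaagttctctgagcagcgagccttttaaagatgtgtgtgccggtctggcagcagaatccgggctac
Abcc9, chr6:142702275-142702524, strand minus: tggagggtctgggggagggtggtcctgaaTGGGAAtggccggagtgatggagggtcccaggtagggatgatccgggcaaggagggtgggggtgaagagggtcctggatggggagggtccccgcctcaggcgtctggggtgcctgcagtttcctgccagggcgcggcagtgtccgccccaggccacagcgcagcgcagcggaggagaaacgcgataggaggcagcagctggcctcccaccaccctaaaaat
Rgs5, chr1:169655251-169655500, strand plus: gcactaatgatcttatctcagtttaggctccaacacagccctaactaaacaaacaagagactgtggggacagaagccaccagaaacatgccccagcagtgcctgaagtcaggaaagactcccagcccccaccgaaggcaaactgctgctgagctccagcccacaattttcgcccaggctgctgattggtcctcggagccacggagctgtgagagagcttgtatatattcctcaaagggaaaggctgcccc
Rgs4, chr1:169747643-169747892, strand minus: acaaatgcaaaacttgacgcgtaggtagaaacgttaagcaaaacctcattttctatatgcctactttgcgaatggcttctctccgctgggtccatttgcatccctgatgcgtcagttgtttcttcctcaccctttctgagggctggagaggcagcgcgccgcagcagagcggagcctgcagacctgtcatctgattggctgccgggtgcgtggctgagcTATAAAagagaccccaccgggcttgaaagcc
Steap4, chr5:7960222-7960471, strand plus: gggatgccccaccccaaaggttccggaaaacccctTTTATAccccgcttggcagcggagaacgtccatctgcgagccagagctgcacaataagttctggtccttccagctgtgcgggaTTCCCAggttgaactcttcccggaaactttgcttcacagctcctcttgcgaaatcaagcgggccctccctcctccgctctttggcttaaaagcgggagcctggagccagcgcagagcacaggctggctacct

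The neighbours differed in these letters. Abcc9 held TGGGAA, starting 221 bases before its start site, and Kcnj8 held neither motif. Rgs4 held TATAAA 31 bases before its start, and Rgs5 held neither. TGGGAA was found on either strand in 3 of the 8 members (Abcc9, Steap4 and Vtn), against 21.6% of 32851 promoter windows of the same length. TATAAA was found in 3 of 8 (Rgs4, Steap4 and Vtn), against 12.4%, and in Vtn its 2 matches, on opposite strands, overlap. The GC box, GGGCGG, was found in Abcc9, Cspg4 and Notch3, against 32.7%, and the CArG box bound by serum response factor in 0 of 8, against 1.47%. These matches describe letters in a window and say nothing of binding.

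Most pericyte genes had a higher mean in KO hearts, but none passed the test, and for most of them the size of the difference rested on the low values of WT replicate 1. Of the 10 members, 9 had a higher mean in KO and 1, Pdgfrb, a lower mean, while 54.8% of all features had a higher mean in KO. Cspg4 is counted here as higher at 0.05, and its sign turned under median scaling. The median difference of the members was 1.08 (range -0.28 to 2.07), while the median over all 22931 features was 0.07. Without WT replicate 1 the members' median fell to 0.30. Both KO arrays lay above both WT arrays for 6 members (Kcnj8, Abcc9, Vtn, Steap4, Rgs5 and Notch3), as they did for 18.3% of all features. Both KO arrays lay below both WT arrays for 0 members, against 16.1% of all features.

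In limma, 0 of 10 members and 0% of all features had an adjusted p under 0.05. The members' adjusted p ran from 0.740 to 0.969, and 633 features had an unadjusted p under 0.05. Steap4 was the 1 member below that level, against 1.41% of all features that were below it and higher in KO. With 2 arrays in each genotype, an exact permutation test (two-sided) cannot give a p below 0.333, and the 6 members whose genotypes did not overlap reached it. Since RNA of heart tissue was measured, a change in the number of cells of a type and a change in RNA per cell cannot be told apart.

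**Figure D1:**
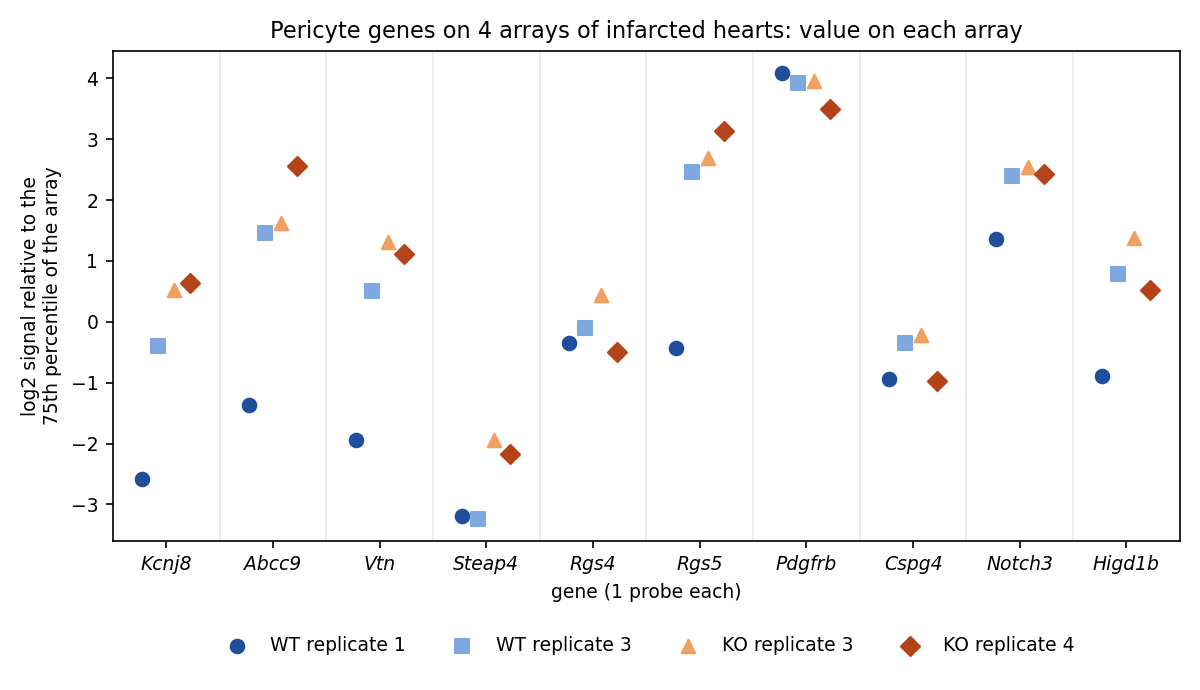
Log2 signal of 10 pericyte genes relative to the 75th percentile of each array (vertical axis), 1 point per array, with WT in blue and KO in orange and brown. WT replicate 1 is far below the other arrays for Kcnj8, Abcc9, Vtn and Rgs5, while the points of Pdgfrb lie within 0.59 of each other.

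The pore gene of the vascular KATP channel, Kcnj8, was at -2.59 and -0.40 on WT replicates 1 and 3 and at 0.52 and 0.64 on KO replicates 3 and 4. The KO values lay close together and above both WT values, and the nearest arrays of the 2 genotypes were 0.92 apart. The mean was -1.49 ± 1.55 for WT and 0.58 ± 0.09 for KO (SD over n = 2 arrays). KO exceeded WT by 2.07 (SE 0.80, 95% interval -0.08 to 4.22), or 4.20-fold. The unadjusted p was 0.0559 and the adjusted p = 0.740 in limma. Without WT replicate 1 the difference was 0.98, and without WT replicate 3 it was 3.17.

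Abcc9, which encodes the SUR2 regulatory subunit, was at -1.37 and 1.45 in WT and at 1.62 and 2.55 in KO. WT replicate 3 and KO replicate 3 were only 0.17 apart, so the genotypes were barely separate. The difference was 2.05 (SE 1.05, 95% interval -0.77 to 4.87, adjusted p = 0.740 in limma). Leaving out WT replicate 1 gave 0.64, and leaving out WT replicate 3 gave 3.46. The Kcnj8 and Abcc9 differences, 2.07 and 2.05, were alike in size, but the arrays differed in detail: KO replicate 4 exceeded KO replicate 3 by 0.93 for Abcc9 and by 0.13 for Kcnj8.

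The remaining KATP channel genes, which are not among the 10, were set beside the vascular pair. Kcnj11, the Kir6.2 pore of cardiomyocytes and pancreatic beta cells, was at -6.73 and -1.78 in WT and at -1.94 and -0.94 in KO, and WT replicate 1 was not well above background for it. Abcc8, which encodes the regulatory subunit SUR1, was at -3.95 and 1.29 in WT and at 1.36 and 2.44 in KO. Both had their lowest value on WT replicate 1 and their highest on KO replicate 4, as Kcnj8, Abcc9 and Rgs5 did. Abcc8 differed by 3.23 (SE 1.84), and its WT replicate 1 value, -3.95, was only a little above that array's lowest signal well above background (-4.39). The difference of Kcnj11, 2.82 (SE 1.74), rests on a WT replicate 1 value below the array's lowest signal well above background (-4.39), so its size is uncertain. Both had an adjusted p = 0.740 in limma. Ventricular cardiomyocyte markers had the same lowest and highest arrays, with list means of 2.25 and 6.34 in WT, and of 6.12 and 6.90 in the KO hearts. All 16 of these markers were lowest on WT replicate 1, and all 16 were well above background on every array. Their part in the Kcnj8, Abcc9, Rgs5, Kcnj11 and Abcc8 values was not tested.

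Vtn encodes vitronectin, an adhesive glycoprotein of plasma and matrix. It was at -1.95 and 0.50 in WT and at 1.31 and 1.12 in KO, again with WT replicate 1 lowest and the genotypes not overlapping. The difference was 1.94 (SE 0.88, 95% interval -0.44 to 4.31, adjusted p = 0.740 in limma), 0.71 without WT replicate 1 and 3.16 without WT replicate 3. Its probe is printed in 10 spots on each array, which gives a measure of the error within an array. The SD over the spots used was 0.03 to 0.06 on each array, after 1 outlier spot was left out on each WT array. The WT arrays differed from each other by 2.45 and the KO arrays by -0.19 (replicate 4 minus replicate 3). Vitronectin is made mainly by the liver, and of 6 hepatocyte markers 3 could be tested. Ahsg, Apoa2 and Ttr differed by 0.99 (SE 1.27), 0.36 (SE 0.54) and 0.00 (SE 0.52), and Ttr was not well above background on WT replicate 1.

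Steap4, a metalloreductase that reduces iron and copper and is induced in inflammation, was the member whose genotypes were most clearly apart. It was at -3.19 and -3.23 in WT and at -1.95 and -2.17 in KO. The arrays of each genotype lay close together, and the nearest WT and KO arrays were 1.02 apart. The mean was -3.21 ± 0.03 for WT and -2.06 ± 0.15 for KO (SD over n = 2 arrays). KO exceeded WT by 1.15 (SE 0.31, 95% interval 0.31 to 1.99), or 2.22-fold. The unadjusted p was 0.0180, rank 127 among 22931 features, and the adjusted p = 0.740 in limma. Leaving out each array in turn gave 1.04 to 1.26, and normexp background correction with an offset of 50 gave 0.57. Steap4 was the dimmest against the array floor: it lay 1.20 above the dimmest probe still well above background on WT replicate 1, and 3.26 to 5.13 above that probe on the others.

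Steap4 is also made outside mural cells, by fat cells and myeloid cells. Adipocyte markers, 5 of 7 tested, had list means of -0.06 and -5.25 in WT and -3.25 and -5.22 in KO, with the WT arrays at the top and bottom of the range; 4 of the 5 were well above background on all arrays. The 16 tested pan-macrophage markers had means of 3.43 and 2.49 in WT and 2.39 and 1.13 in KO, and all 16 had a lower mean in KO. The 10 neutrophil markers had means of -0.68 and -2.63 in WT and -1.81 and -1.76 in KO, with 5 higher and 5 lower in KO. Of these, Ngp and Ltf had both KO arrays above both WT arrays, as Steap4 and 18.3% of all features did. They differed by 1.36 (SE 0.42) and 1.38 (SE 0.73), and Ngp was not well above background on the WT arrays. Il1r2 and Cxcr2 ran the other way, by -2.11 (SE 0.99) and -1.68 (SE 0.95). For Il1r2 both KO arrays lay below both WT arrays, as for 16.1% of all features. Cxcr2 was not well above background on KO replicate 3. The part of these cells in the Steap4 values was not tested.

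**Figure D2:**
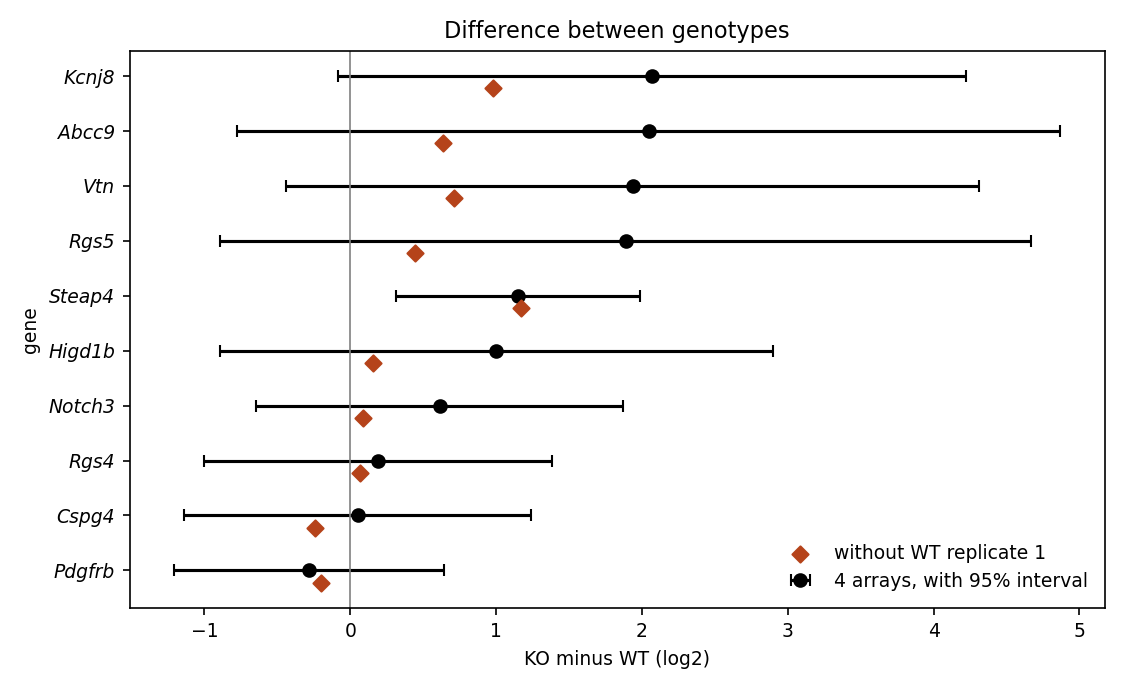
Difference KO minus WT (horizontal axis, log2) for each of the 10 pericyte genes, with the 95% interval from limma in black and the difference without WT replicate 1 as brown diamonds. The interval of Steap4, 0.31 to 1.99, is the only one of the 10 that leaves out 0, and the diamond of Cspg4 lies on the other side of 0.

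Rgs5 and Rgs4 encode neighbouring members of a family that speeds up GTP hydrolysis by G protein alpha subunits and so shortens receptor signals, and they had unlike patterns. Rgs5, a standard pericyte marker, was at -0.42 and 2.47 in WT and at 2.69 and 3.13 in KO. WT replicate 1 was lower than every other array by at least 2.89, and the remaining arrays lay within 0.66 of each other. Its difference was 1.89 (SE 1.03, 95% interval -0.89 to 4.67), 0.44 without WT replicate 1 and 3.33 without WT replicate 3. Rgs4 was at -0.35 and -0.10 in WT and at 0.44 and -0.49 in KO, so the KO arrays were its highest and its lowest. Its difference was 0.19 (SE 0.44, 95% interval -0.999 to 1.39), and its sign turned without KO replicate 3. The dimmer probe of Rgs4 gave -0.99 and -0.75 in WT and -0.09 and -0.72 in KO, with a difference of 0.46.

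Pdgfrb, the receptor through which endothelial PDGF-B holds pericytes at the vessel, had the smallest range of the members. It was at 4.09 and 3.93 in WT and at 3.96 and 3.49 in KO, with 0.03 between WT replicate 3 and KO replicate 3. The difference was -0.28 (SE 0.35, 95% interval -1.21 to 0.65), so the data allow anything from a 0.433-fold to a 1.56-fold level in KO. Pdgfrb is also made by fibroblasts, whose 14 markers had list means of 2.36 and 2.91 in WT and 3.21 and 2.77 in KO. These markers did not move together: 9 had a higher and 5 a lower mean in KO, with differences from -1.08 to 1.81. Of the other 5 PDGF genes, 1 had a higher and 4 a lower mean in KO, with a median of -0.11, and 0 passed the test. The ligand genes Pdgfb, Pdgfa and Pdgfd differed by -0.10 (SE 0.37), -0.22 (SE 0.47) and 0.37 (SE 0.38), Pdgfc by -0.85 (SE 0.68), and the receptor gene Pdgfra by -0.11 (SE 0.41).

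Cspg4, the NG2 proteoglycan on the surface of pericytes, was at -0.94 and -0.36 in WT and at -0.22 and -0.97 in KO. The arrays numbered 3 were the higher ones in both genotypes, and the genotypes overlapped fully. The difference was 0.05 (SE 0.44, 95% interval -1.14 to 1.24), and it was -0.059 under median scaling and -0.24 without WT replicate 1. Higd1b, a HIG1 domain gene used as a pericyte marker, was at -0.89 and 0.79 in WT and at 1.37 and 0.53 in KO. WT replicate 3 lay between the KO arrays. Its difference was 1.001 (SE 0.71, 95% interval -0.90 to 2.90), 0.16 without WT replicate 1, 1.84 without WT replicate 3 and 0.58 without KO replicate 3.

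Notch3, the Notch receptor of mural cells, was at 1.35 and 2.40 in WT and at 2.55 and 2.44 in KO. The gap between the genotypes was 0.03, and 3 of the 4 arrays lay within 0.14 of each other. The difference was 0.61 (SE 0.47, 95% interval -0.64 to 1.87), 0.09 without WT replicate 1 and 1.14 without WT replicate 3. Of 9 Notch ligands and mural target genes, 5 had a higher and 4 a lower mean in KO, with a median of 0.10, and 0 passed the test. Those of smallest p were the targets Hey1 (0.58, SE 0.34) and Hey2 (0.91, SE 0.64) and the ligands Jag2 (1.03, SE 0.62) and Jag1 (-0.44, SE 0.33); Hey2 was not well above background on WT replicate 1.

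The members fell into unlike patterns across the arrays. WT replicate 1 was the lowest array for 6 members (Kcnj8, Abcc9, Vtn, Rgs5, Notch3 and Higd1b), as it was for 41.7% of all features. KO replicate 4 was lowest for Rgs4, Pdgfrb and Cspg4, and WT replicate 3 for Steap4. The root mean square distance between arrays over the 10 members was 1.77 between the WT arrays and 0.59 between the KO arrays. It was 0.62 between the arrays numbered 3, which are of unlike genotype. WT replicate 3 was 0.71 from KO replicate 4, so it lay nearer to both KO arrays than to the other WT array. The same held over all features, where the distances were 1.18 between the WT arrays and 0.56 and 0.84 from WT replicate 3 to the KO arrays.

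The pattern of Kcnj8 was compared with that of every other feature by the root mean square distance of the 4 log2 values after each gene's own mean was taken off. Among the members, Vtn (0.16), Rgs5 (0.29) and Abcc9 (0.36) were nearest, with 0.048%, 0.244% and 0.628% of the other features nearer to Kcnj8. Steap4 (0.92), Cspg4 (1.20), Rgs4 (1.22) and Pdgfrb (1.45) were far from it. Among genes that are no member, those near it included Lilra5 (0.06), C1qtnf9 (0.08), Abca8a (0.12) and Col4a4 (0.14). Lilra5 and Abca8a were at -6.44 and -6.66 on WT replicate 1, below that array's lowest signal well above background (-4.39). Col4a4, at -4.30, lay close to that signal, so the distances of Lilra5, Abca8a and Col4a4 are uncertain. All distances in this comparison rest on 4 arrays of which 1 stands apart, and they are given as a description.

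**Figure D3:**
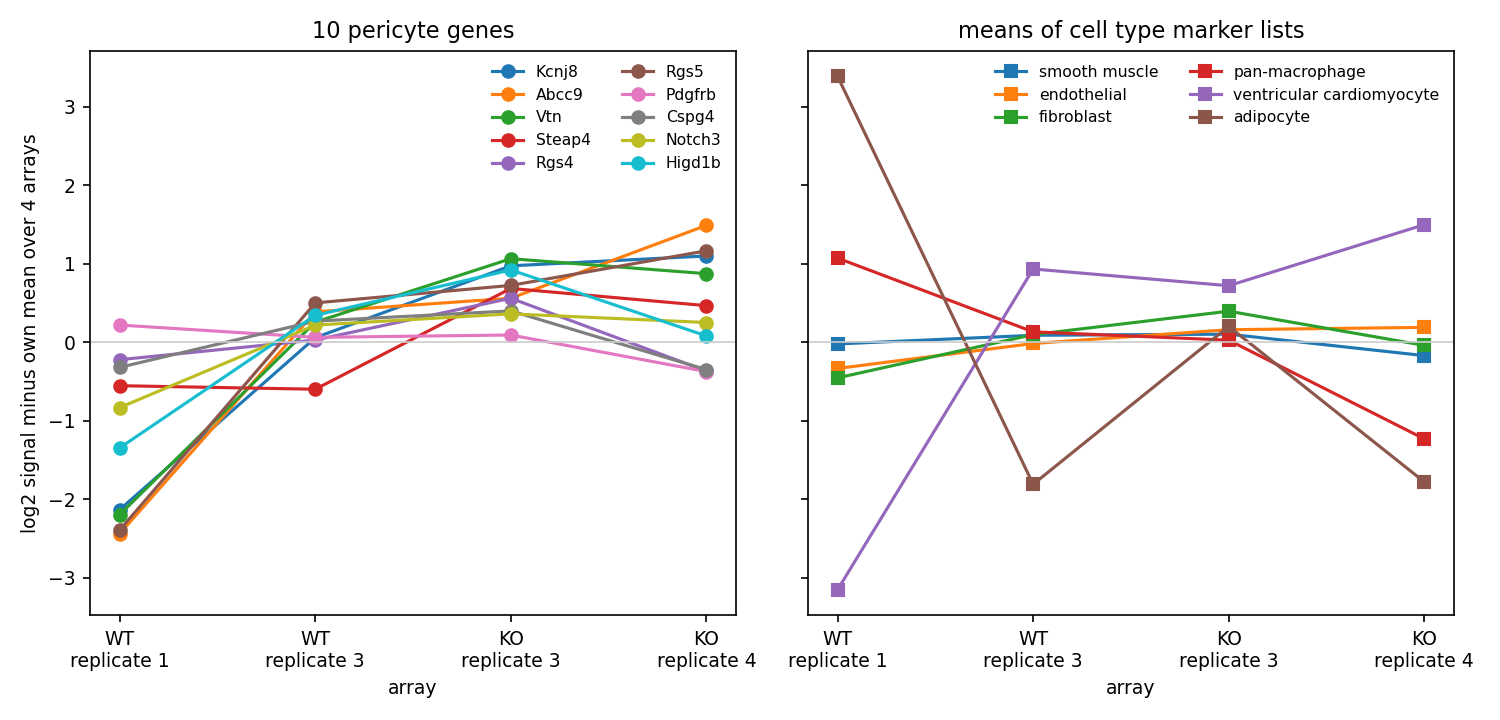
Log2 signal minus the mean over the 4 arrays (vertical axis) for each of the 10 pericyte genes on the left and for the means of 6 cell type marker lists on the right, by array; lines join the values of a gene or list and stand for no order. Kcnj8, Abcc9, Vtn and Rgs5 are lowest on WT replicate 1, as the means of the ventricular cardiomyocyte, endothelial and fibroblast lists are. The smooth muscle, endothelial and fibroblast means move by less than 1 over the arrays, and the smooth muscle genes did not move together.

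A longer list of mural cell genes was mixed in direction. Of 33 tested genes, 24 had a higher and 9 a lower mean in KO, with a median of 0.31, against 0.07 over all features, and 0 passed the test. Both KO arrays were above both WT arrays for 8 of them and below for 3, against 18.3% and 16.1% of all features. The chloride channel gene Ano1, of smallest p, was at -0.43 and 0.36 in WT and 1.06 and 1.37 in KO (difference 1.25, SE 0.42). Nrip2 differed by 2.21 (SE 0.88) but was not well above background on WT replicate 1. The aminopeptidase Anpep ran the other way, at 3.43 and 2.97 in WT and 2.53 and 1.59 in KO (-1.14, SE 0.47). Each of these 3 genes had an adjusted p = 0.740 in limma.

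Genes by which vessels recruit and hold pericytes leaned the other way. Of 18, 5 had a higher and 13 a lower mean in KO, and 0 passed the test. Their median was -0.49, against 0.07 over all features, of which 54.8% had a higher mean in KO. For 3 of the 18 both KO arrays lay above both WT arrays and for 4 below, against 18.3% and 16.1% of all features. This list holds S1pr1 itself, 1 of the 4 below, at -3.19 (SE 0.38). The integrin subunit Itgav was at 1.21 and 0.19 in WT and 0.03 and -0.70 in KO (-1.04, SE 0.52). Itgb3 was at 1.62 and 0.09 in WT and 0.07 and -1.11 in KO (-1.38, SE 0.72). Both genes were highest on WT replicate 1, and their KO arrays lay below both WT arrays, as for 16.1% of all features. Tek, the angiopoietin receptor, differed by 0.81 (SE 0.47).

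Markers of the cells next to pericytes were set beside the members. The 12 smooth muscle genes had list means of -0.10 and 0.01 in WT and 0.02 and -0.25 in KO, with 7 higher and 5 lower in KO and a median of 0.25. These genes did not move together: 6 of the 12 were lowest on WT replicate 1, among them Myh11, Synpo2, Myocd, Des and Smtn. Myh11 and Myocd were not well above background on that array. Of the genes of smallest p, Cnn1 was at 3.88 and 0.94 in WT and 0.68 and -0.68 in KO, Tagln at 6.34 and 4.62 against 4.48 and 3.10, and Actg2 at 2.997 and -0.48 against -0.76 and -2.21. These 3 genes were highest on WT replicate 1. Ntsr2, not well above background on WT replicate 1, was at -4.76 and -2.13 in WT and -1.30 and -1.80 in KO. The 18 endothelial markers had means of 1.14 and 1.46 in WT and 1.64 and 1.67 in KO, 17 of them higher in KO by a median over the list of 0.27, with Cldn5 at 1.19 (SE 0.47) and Tie1 at 0.45 (SE 0.33). No gene of these lists passed the test, and their part in the members' values was not tested.

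**Figure D4:**
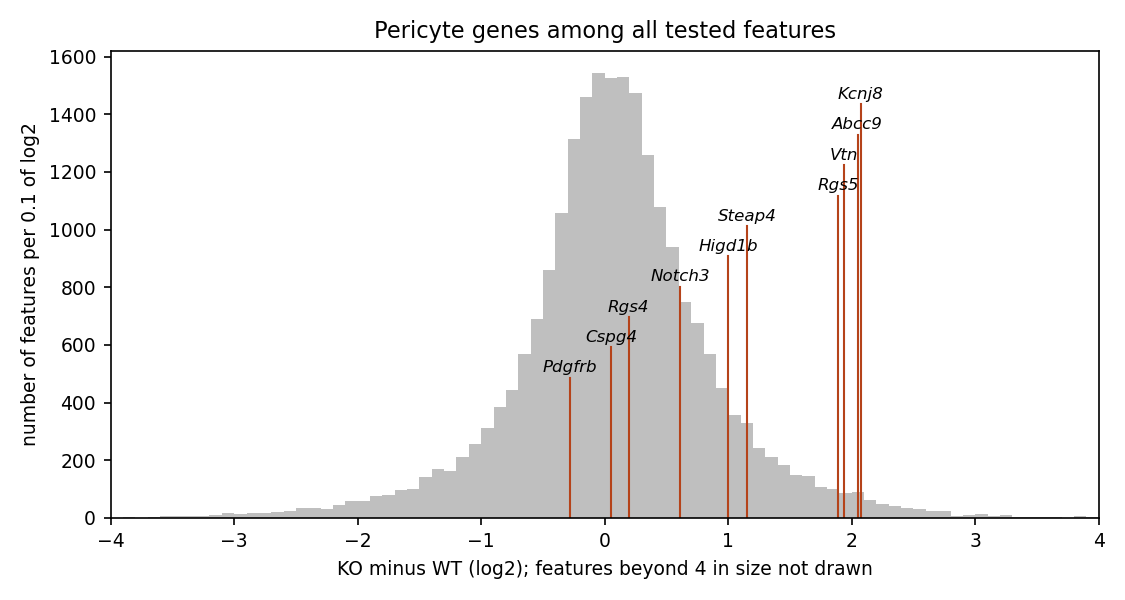
Number of tested features (vertical axis) by their difference KO minus WT (horizontal axis, log2, in steps of 0.1), with a labelled line for each of the 10 pericyte genes; line heights only keep the labels apart. Kcnj8, Abcc9, Vtn and Rgs5 lie between 1.89 and 2.07, Steap4 and Higd1b near 1, and Pdgfrb, Cspg4, Rgs4 and Notch3 between -0.28 and 0.61, around the median of all features (0.07); Cspg4, at 0.05, turned to -0.059 under median scaling.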

How the data were processed

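Cy3-labelled heart RNA was measured on 4 Agilent arrays, 1 colour each. The deposited scanner files hold a processed signal, an intensity that per the file headers came from Feature Extraction 11.0.1.1; the submitters' processing notes name version 9.1. The deposited value table holds log2 values with a median of 6.11 on each array, so the arrays had been brought to a common scale. How is not given in the sources used here. Against log2 scanner signals its slopes were 0.992 to 1.01; it served as an alternative.

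Outlier and control spots were left out, spots of a probe averaged on the log2 scale, and the 75th percentile of each array subtracted. The GRCm38.p6 table gave a symbol for the accession of 27234 of the 39429 probes; the files carry no gene name column. Probes well above background on at least 2 arrays were kept, with the brightest per gene. No spot was saturated. The fit used limma 3.58.1 (lmFit, eBayes) under R 4.3.3. Its two-sided p-values were adjusted by Benjamini-Hochberg across every feature tested, with calls at 0.05. The fit was tested on simulated data with equal noise on every array, which does not cover an array that stands apart. In the fit to the real arrays, 6 features lacked a value on some array, and no member did. The number of arrays limits the precision.

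All members were described. From each other list the genes named are up to 4 of smallest unadjusted p, with these additions. Pdgfb was added after its values were seen, as the ligand of Pdgfrb. Myh11, Synpo2, Myocd, Des and Smtn were added from their values, as smooth muscle genes lowest on WT replicate 1. The 5 nearest to Kcnj8 were also to be named. A gene that these rules name is not reported here. The members and lists were chosen with earlier results of these data known. Alternatives were quantile and median scaling, normexp, other filters, a common floor, the deposited values, probe means, other eBayes options, an adjusted p under 0.10 and each array left out.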

Additional observations from a re-analysis of the deposited data

How the results depend on the processing

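No paired analysis was possible because the genotypes share only 1 replicate number, 3. Under all 14 alternatives limma called 0 members and 0 features; the count of features with an unadjusted p under 0.05 ran from 167 (without KO replicate 4) to 4251 (without WT replicate 3). Of 140 member values, 136 kept their sign, but many of these values could not turn. The other filters, the common floor, the other eBayes options and the looser adjusted p threshold left every member's difference unchanged. Probe means changed only Rgs4, the sole member with several probes. For those settings the kept signs are therefore no test of the differences. Cspg4 turned to -0.059 under median scaling, and ran from -0.32 to 0.42 with 1 array left out, being -0.24 without WT replicate 1 and -0.32 without KO replicate 3. Rgs4 ran from -0.27 (without KO replicate 3) to 0.66. The cause was not tested. The members' median was 0.68 after normexp, 0.97 to 1.08 under the other settings that keep all arrays, and 0.30 to 1.49 with 1 array left out. Median scaling moved the median of all features from 0.07 to -0.04. With 1 array left out, the lone array of its genotype is assumed to vary like the others. Signal over background limits Steap4 most, on WT replicate 1.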
